A study of Mus musculus with 4 samples.

Results

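Adenoma cells that carried the lysozyme transcript Lyz1 were compared with adenoma cells of the same libraries that carried none. Cells were taken from barcodes with at least 10000 unique molecular identifiers (UMIs), at least 200 genes and at most 20% mitochondrial UMIs. An adenoma cell had at least 2 of the Wnt target genes Prox1, Notum and Nkd1 detected, with at least 3 UMIs from them in all. Of 7996 barcodes within these limits, 3245 were adenoma cells. Of these, 656 held 5 or more Lyz1 UMIs and are called Lyz1-positive, 1438 held 0 and are called Lyz1-negative, and the 1151 cells with 1 to 4 UMIs entered neither state. Lyz1 itself set the states and Prox1, Notum and Nkd1 set the gate, so these 4 genes are described without a test.

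The cells came from small intestinal adenomas of C57BL/6 mice aged 11 weeks, all labelled male, in 4 droplet libraries. ApcMin mice (genotype ApcMin/+;Lef1 +/+) have 1 mutated allele of Apc, a tumor suppressor, and VApcMinL mice (ApcMin/+;Lef1 fl/fl; Villin-Cre) carry in addition floxed alleles of the Wnt pathway transcription factor Lef1, removed by a Cre that is active in the intestinal epithelium. Both replicate 1 libraries used kit version 2 of the 10x Genomics 3′ chemistry, and both replicate 2 libraries used kit version 3. Each library pooled several unsorted tumors, and how many animals gave them was not stated. Values of the 4 libraries are given in a fixed order, ApcMin then VApcMinL of replicate 1, followed by ApcMin then VApcMinL of replicate 2.

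Paneth cells are secretory cells at the base of the small intestinal crypt. They release lysozyme, alpha-defensins and other antimicrobial proteins, lie beside the stem cells and supply them with growth signals. Their maturation depends on Wnt signaling, and transcripts of Paneth cells are found in Apc-mutant adenomas, where this pathway is constantly active. The comparison asked whether the other genes of the Paneth program accompany Lyz1 in adenoma cells.

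The Lyz1-positive cells numbered 63, 38, 60 and 495 in the 4 libraries, and the Lyz1-negative cells 219, 316, 195 and 708. The summed positive cells held 1793327, 1003427, 2898957 and 18829504 UMIs, so VApcMinL replicate 1 was measured least deeply. Positive cells were the deeper ones in each library, with medians of 22784, 23096.5, 43121 and 31806 UMIs against 22177, 18829, 34280 and 23621.5 in negative cells. No barcode was shared between the cells of any 2 libraries (0 in all 6 pairs). The libraries are named by their labels, because Lef1 went against them in the kit 2 pair. Its level in negative cells was 11.2, 31.4, 40.7 and 25.2 CPM (UMIs of a gene in the summed cells, scaled to a common total). Counts of 3′ ends can include a transcript that lacks internal exons, so this level does not check the deletion. In addition, every adenoma cell of both states in VApcMinL replicate 1 carried Xist and no Y-linked UMI despite the male label. VApcMinL replicate 2 held cells of both kinds, and Xist without a Y-linked UMI was seen in 16.0% of its positive and 29.1% of its negative cells.

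Lyz1 lies on chromosome 10 (chr10:117287797-117292868, minus strand, GRCm38). Its median in positive cells was 16, 21.5, 25 and 19 UMIs, and its highest count in a cell was 357, 259, 4183 and 1768 UMIs. The level of Lyz1 in the positive sums was therefore 1378, 1854, 2538 and 1849 CPM. A minority of cells held most of it. The 173 cells with 50 or more Lyz1 UMIs (12, 11, 19 and 131 cells) carried 66.5%, 76.9%, 89.6% and 82.3% of the Lyz1 UMIs of the positive cells. Just inside the limit were 57 cells with 5 UMIs of Lyz1, and just outside it 86 cells with 4. The gate genes were lower in the positive sums of each library. Prox1, for example, measured 69.1, 131, 210 and 133 CPM in positive cells and 127, 317, 464 and 198 CPM in negative cells.

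Lyz1 at 5 UMIs or more was rare in barcodes of another cell type. Enterocyte-marker barcodes, which met the same limits, had no UMI of the gate genes, UMIs of both Alpi and Sis and at least 2% of their UMIs from enterocyte genes, reached 5 UMIs in 0 of 104 (which allows a share of up to 2.88%), 3 of 274, 2 of 695 and 2 of 442 cases. Adenoma cells reached it in 14.2%, 7.80%, 17.5% and 25.1% of cells. A single Lyz1 UMI was much less specific, since 27.9%, 22.3%, 22.6% and 35.1% of enterocyte-marker barcodes and 50.7%, 35.1%, 43.0% and 64.1% of adenoma cells held at least 1. The enterocyte-marker barcodes were shallower, with medians of 13002.5, 13373.5, 28745 and 17873 UMIs against 23197.5, 19682, 36636 and 27620.5 in adenoma cells.

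In the summed cells, the antimicrobial genes of the Paneth program came along with Lyz1. UMIs were summed per library and state, and the 4 pairs of sums were tested with edgeR's quasi-likelihood test with the library as a block and Benjamini-Hochberg adjustment over the 11684 genes that passed a filter on low counts. Of these, 75 genes (0.642%) were higher and 86 (0.736%) were lower in positive cells at an adjusted p under 0.05. The counts include Lyz1 among the higher and Prox1 and Nkd1 among the lower genes. The Paneth list without Lyz1 had 36 members in the gene tables, 28 of them alpha-defensins, and 15 passed the filter. Of these 15, 11 were higher and 0 were lower. The median log2 difference of the 15 was 5.59, against 0.0013 for all genes tested. A member that is seen mainly in positive cells passes the filter through them, so these counts describe the 15 and not all 36. In 5 of the 15 (Ang4, Clps, Defa17, Defa24 and Itln1) all positive sums lay above all negative sums, as they did for 1.26% of all genes tested, and in 0 all lay below, as for 1.61%. The p-values measure the spread between these 4 libraries.

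Ang4 (chr14:51763878-51773590), an angiogenin with antimicrobial activity, showed the difference in each library. It measured 370, 96.7, 534 and 198 CPM in positive cells and 1.87, 3.75, 1.30 and 2.21 CPM in negative cells. All positive values lay above all negative ones, and the log2 difference was 6.87 ± 0.40 (SE, edgeR adjusted p = 0.00011). Itln1 (chr1:171518122-171535294), which encodes a lectin that binds microbial sugars, measured 830, 357, 3128 and 668 CPM in positive and 104, 282, 298 and 146 CPM in negative cells. The groups did not overlap, but in VApcMinL replicate 1 the 2 states lay close together, and the fitted difference was 2.34 ± 0.43 (edgeR adjusted p = 0.0359). Mptx2 (chr1:173274382-173277777), a secreted pentraxin, was at 562, 560, 1219 and 272 CPM in positive and 65.1, 106, 396 and 153 CPM in negative cells. It was higher in 4 of 4 libraries although the groups overlapped, and it differed by 2.01 ± 0.31 (edgeR adjusted p = 0.0231). Mmp7 (chr9:7692090-7699585), the protease that processes alpha-defensin precursors, moved least among the called members, from 143, 156, 161 and 215 CPM in negative to 312, 202, 335 and 312 CPM in positive cells (log2 difference 0.83 ± 0.13, edgeR adjusted p = 0.0231).

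The alpha-defensins rose most steeply. These small peptides disrupt bacterial membranes. Defa24 measured 10751, 516, 15502 and 3198 CPM in positive and 187, 33.3, 46.3 and 46.9 CPM in negative cells, a log2 difference of 6.14 ± 0.64 (edgeR adjusted p = 0.0038). Defa22 measured 3206, 0, 770 and 734 CPM in positive and 10.8, 0, 1.95 and 7.74 CPM in negative cells. It was thus absent from both states of VApcMinL replicate 1 while it rose in the other 3 libraries, and the same held for Defa21. Defa17 and Gm15284 were called with log2 differences of 5.59 and 6.49, and Clps, which encodes the lipase cofactor colipase, with 4.28. AY761184 (edgeR adjusted p = 0.109) and Gm14851 (0.0558) missed the threshold at log2 differences of 5.21 and 6.11, as did Nupr1 at 0.20 and Habp2 at -0.03. Alpha-defensin genes are near-identical copies and can share reads, so the division of UMIs among them is uncertain. Leaving out a library changed some of these calls. Ang4, Defa17, Defa21, Defa22 and Defa24 were called in all 4 of these fits. Itln1 and Mmp7 lost the call without ApcMin replicate 1 or ApcMin replicate 2, Mptx2 without VApcMinL replicate 1, and Clps and Gm15284 without ApcMin replicate 1. With negative cells matched 1 to 1 on depth, 10 members were called, and Itln1 (2.65 ± 0.72, edgeR adjusted p = 0.179) and Mptx2 (2.49 ± 0.66, 0.168) were not.

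Single cells gave another picture than the sums. In most Lyz1-positive cells the other Paneth genes were sparse. Of the 656 positive cells, 588 had under 0.2% of their UMIs from the Paneth list, and only 27 reached 1%. These 27 cells (2, 2, 7 and 16 in the 4 libraries) held 97.6%, 44.8%, 97.6% and 93.4% of the Paneth list UMIs of all positive cells. The richest cell of each library had 75.8%, 1.63%, 83.2% and 83.1% of its UMIs from the list, so VApcMinL replicate 1 held no cell with a content near that of the others. Of the 27 cells, 23 had 50 or more Lyz1 UMIs. The summed crypt stem cell genes were at 2756, 6163, 4039 and 2908 CPM in the 27 cells. In the other positive cells these genes were at 5384, 7879, 7032 and 5089 CPM. A high share of Paneth list UMIs itself lowers the CPM of all other genes. The gate asks for only a few UMIs of Prox1, Notum and Nkd1. Whether the 27 are adenoma cells or ordinary Paneth cells that passed the gate was not tested. Cells of 1% or more were also present without Lyz1, namely 11 of the 1438 negative cells and 6 of those with 1 to 4 Lyz1 UMIs. Scrublet, which scores likely doublets, marked 29 of the 656 positive and 38 of the 1438 negative cells, and 0 of the 27. The 27 were deeper in each library, with medians of 54108, 27305, 51144 and 35934.5 UMIs. The other positive cells had medians of 22700, 23096.5, 42384 and 31252 UMIs. Without cells above 2 times the median UMIs, 4 of the 15 tested Paneth members were called higher.

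**Figure D1:**
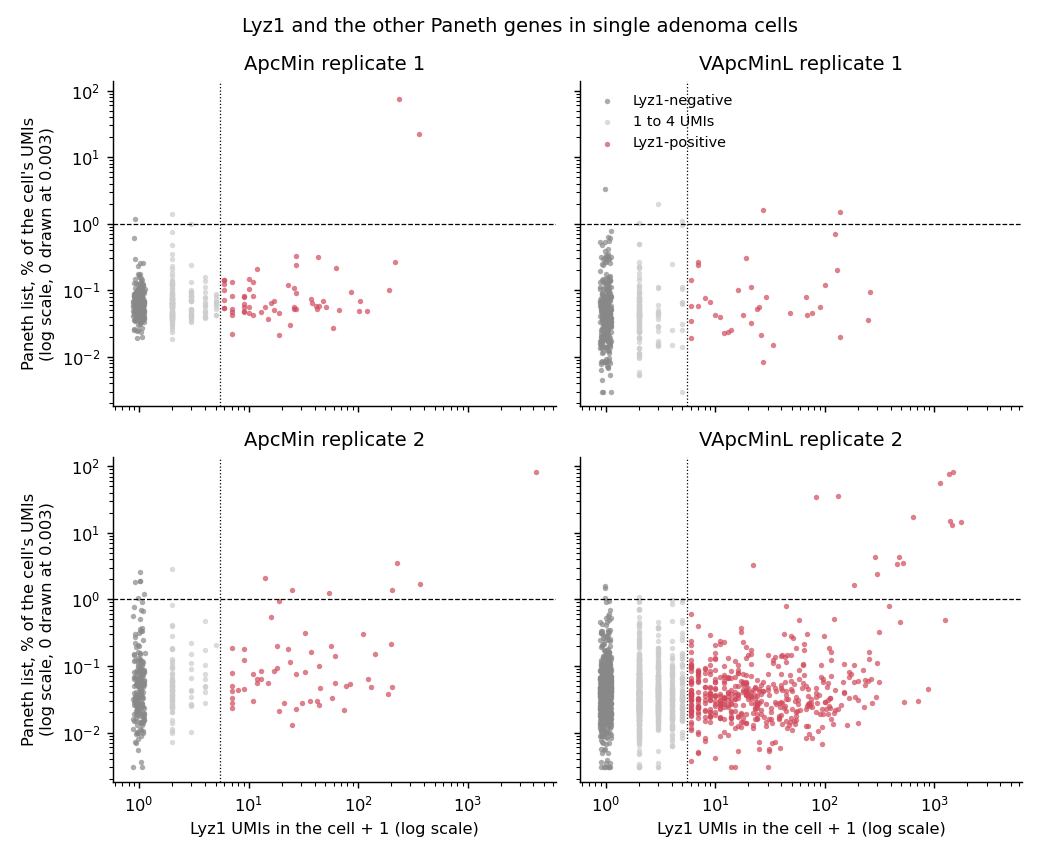
Each point is 1 adenoma cell, with its Lyz1 UMIs + 1 on the horizontal log axis and the share of its UMIs from the Paneth list on the vertical log axis, 1 panel per library. The dotted line marks the limit of 5 Lyz1 UMIs and the dashed line 1% of UMIs, above which lie 27 of the 656 positive cells, most of them at high Lyz1 counts.

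Without the cells of highest Lyz1, the other Paneth genes were no longer called higher. When the 173 cells with 50 or more Lyz1 UMIs were left out, 0 of the 15 tested members of the Paneth list were called higher and 1, Mmp7, was called lower, while 73 genes in all were higher and 108 lower (1411 genes had an unadjusted p under 0.05). The median of the 15 members was 0.229 on the log2 scale. Ang4 then differed by 0.36 ± 0.37 (edgeR adjusted p = 0.81), Itln1 by 0.69 ± 0.27 (0.324), Mptx2 by 0.68 ± 0.44 (0.617) and Defa24 by 0.83 ± 0.35 (0.353). Mmp7 turned direction, with a log2 difference of -0.53 ± 0.08 (edgeR adjusted p = 0.0104). In contrast, 49 of the 75 higher and 74 of the 86 lower genes were again called. A further comparison, chosen after the data had been seen, left out the cells of either state with at least 1% Paneth list UMIs. It selects on the list itself, so its list values are a description. It called 90 genes higher (0.773%) and 116 lower (0.996%) of 11644, with 61 of the 75 and 85 of the 86 genes again called, and 0 of the 15 Paneth members called (1664 of all genes had an unadjusted p under 0.05 in edgeR).

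The level of the Paneth list did not climb in step with Lyz1. Sums of cells with no Lyz1 UMI had 657 to 1046 CPM of the list over the 4 libraries, those of cells with 1 UMI 595 to 969 CPM, and those of cells with 5 to 9 UMIs 518 to 1078 CPM. Cells with 20 to 49 Lyz1 UMIs lay at 1015 to 2371 CPM and cells with 50 or more at 3291 to 124820 CPM. The median over single cells moved far less. It was 611, 409, 489 and 393 CPM in cells without Lyz1 and 814, 788, 1392 and 446 in cells with 50 or more Lyz1 UMIs. The median was thus higher in the latter in each library, but even there the typical cell was far below the sum. Lyz1 limits of 3 and of 10 UMIs in place of 5 each left 12 of 15 members called higher.

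**Figure D2:**
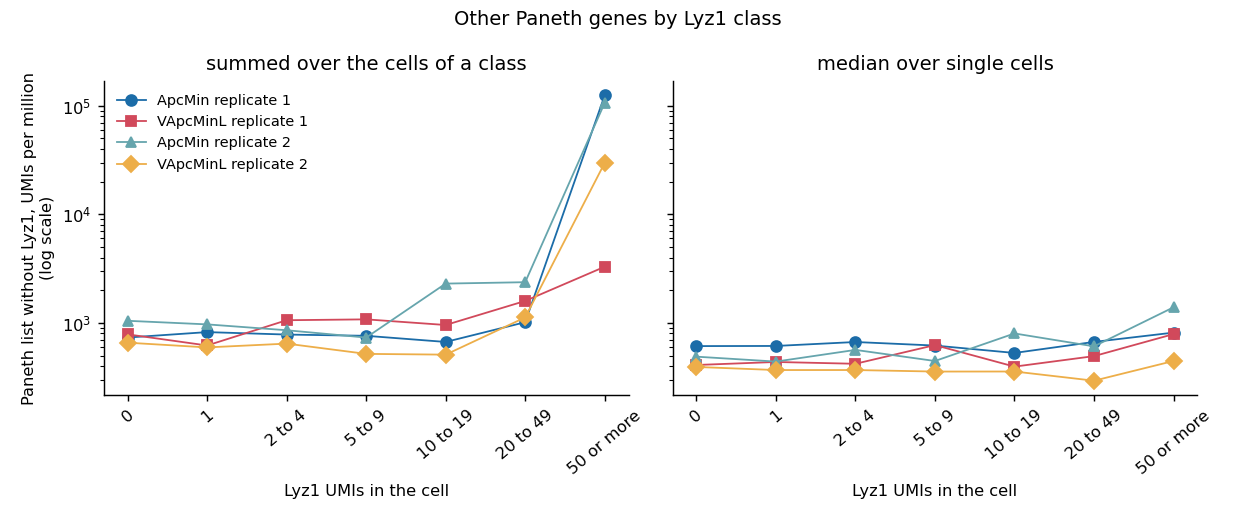
Paneth list level without Lyz1 (CPM, log axis) in 7 classes of Lyz1 UMIs per cell, 1 line per library, for the sum of the cells and for the median over cells. The sums of the 50 or more class reach 3291 to 124820 while the medians stay between 446 and 1392.

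Proportions between the genes differed as well. Paneth-marker barcodes (10, 12, 14 and 20) lay outside the adenoma gate and had at least 5% of their UMIs from Lyz1 and the Paneth list. At least 5 members of the list were detected in each. Since 28 of the 36 members are alpha-defensins, a high ratio to Lyz1 is partly set by this selection. The alpha-defensin sum of these barcodes was 46.7, 9.07, 20.6 and 12.3 times their Lyz1 level. In near-empty barcodes of 10 to 100 UMIs, which carry free RNA, it was 29.1, 7.29, 7.78 and 4.83 times Lyz1. In the Lyz1-positive cells with under 1% Paneth list UMIs the alpha-defensin sum was 0.34, 0.11, 0.08 and 0.10 times Lyz1. Their alpha-defensin sum itself, at 376, 191, 74.4 and 126 CPM, stood beside 380, 45.8, 85.4 and 95.9 CPM in Lyz1-negative cells. It was above the negative cells in VApcMinL replicate 1, by the widest margin, and in VApcMinL replicate 2, and below them in ApcMin replicate 1 and ApcMin replicate 2. Since these cells were picked for Lyz1 and against the list, a low ratio is partly set by the selection. The cells with 5 to 49 Lyz1 UMIs, picked on Lyz1 alone, gave alpha-defensin sum to Lyz1 ratios of 0.62, 0.11, 0.18 and 0.64. Their Lyz1 level was 621, 632, 412 and 451 CPM, which the limit of 5 UMIs sets. Near-empty barcodes had 224, 160, 237 and 184 CPM of Lyz1 and enterocyte-marker barcodes 24.0, 23.4, 10.2 and 48.6 CPM.

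**Figure D3:**
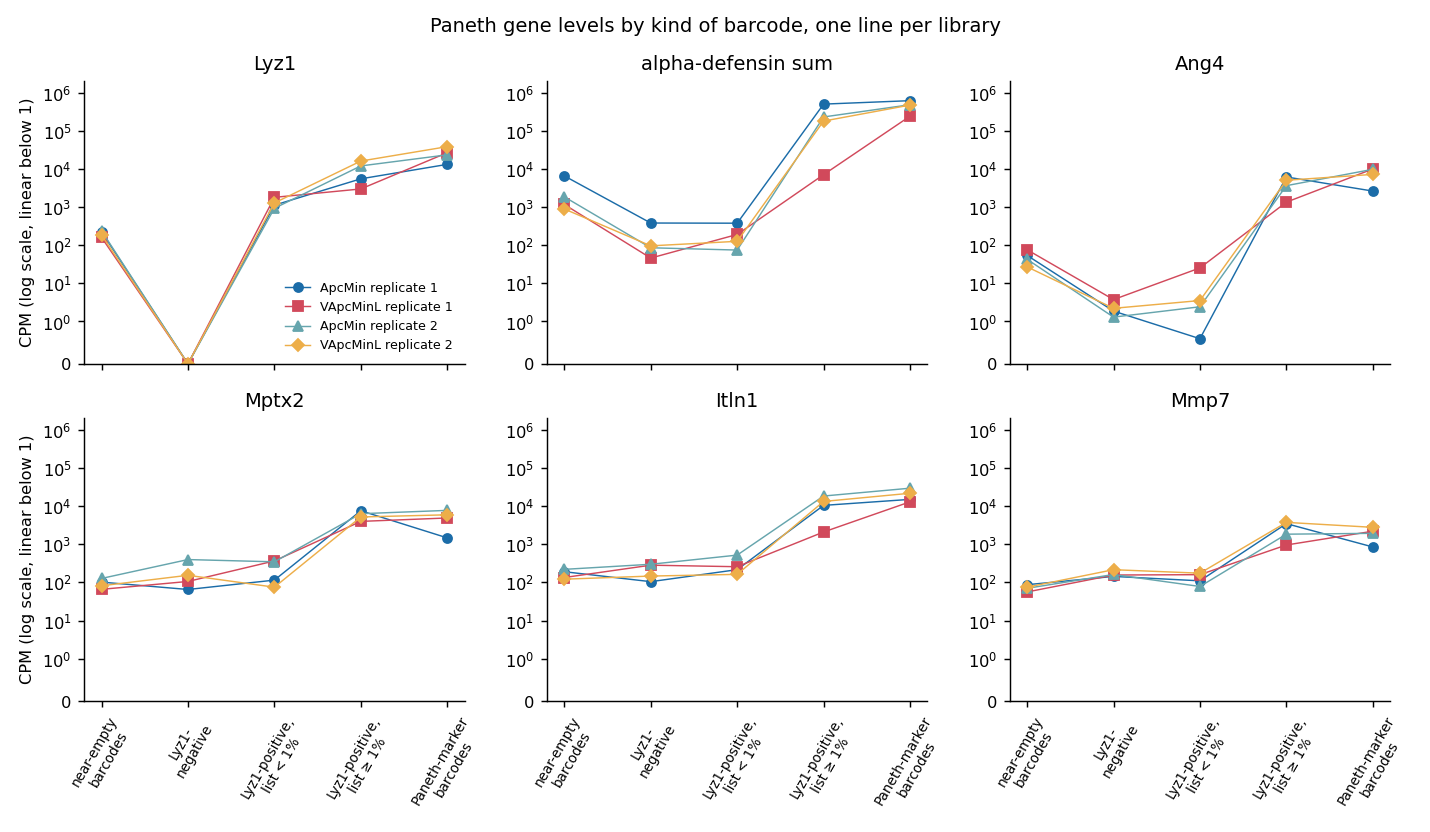
Level in CPM (log axis, linear below 1) of Lyz1 and of other Paneth genes in the kinds of barcode compared, 1 line per library. Positive cells under 1% Paneth list UMIs were picked for Lyz1 and against the list, so both levels there are set by the selection. Paneth-marker barcodes were picked for Lyz1 and the list, so their levels are partly set by it too. The alpha-defensin sum is at 74.4 to 376 CPM in them and at 240000 to 611556 CPM in Paneth-marker barcodes.

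At a common depth, more positive than negative cells held a UMI of Itln1 and of Mptx2 in each library. After each cell was thinned to 10000 UMIs, a UMI of Itln1 was found in 69.8%, 65.8%, 78.3% and 48.7% of positive and 37.0%, 47.2%, 44.1% and 37.7% of negative cells. The mean difference was 24.2 ± 11.3 percentage points (SD over 4 libraries) and positive cells were higher in 4 of 4. Mptx2 was found in 30.2%, 42.1%, 43.3% and 23.0% of positive and 14.6%, 4.11%, 19.5% and 18.1% of negative cells, a difference of 20.6 ± 13.9 points, again in 4 of 4. Both differences were also positive in 4 of 4 libraries among cells with 5 to 49 Lyz1 UMIs, at 14.3 and 16.9 points. Enterocyte-marker barcodes held a UMI of Itln1 in 10.6% to 16.1% and of Mptx2 in 4.46% to 6.23%, so Mptx2 in the negative cells of VApcMinL replicate 1 was at background. The 2-sided exact sign-flip permutation test over 4 library pairs cannot go below a p of 1 in 8, which is the value for both genes.

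Alpha-defensins showed no such difference per cell. At least 1 alpha-defensin UMI was found in 57 of 63, 19 of 38, 32 of 60 and 301 of 495 positive cells and in 98.2%, 40.2%, 57.9% and 59.7% of negative cells. The mean difference was -0.36 ± 7.69 points, higher in 2 of 4 libraries (exact sign-flip permutation p = 1.0), and enterocyte-marker barcodes lay at 99.0%, 52.4%, 55.4% and 68.3%. These shares are at the background level. Mmp7 was found in fewer positive cells in each library, with 47.3% against 59.7% on average (difference -12.5 ± 7.12 points, lower in 4 of 4, the smallest p this exact test allows), and in only 2.01% to 6.73% of enterocyte-marker barcodes. The higher sum and the lower share of Mmp7 thus went in opposite directions. Ang4 was found in 5.80% of positive and 2.69% of negative cells and Clps in 11.3% and 7.09%. The differences were 3.11 ± 1.73 and 4.18 ± 2.47 points, higher in 4 of 4 libraries for each and at the smallest p this exact test allows. Without the cells of 50 or more Lyz1 UMIs they were 1.79 and -0.736 points, higher in 2 of 4 libraries for each.

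**Figure D4:**
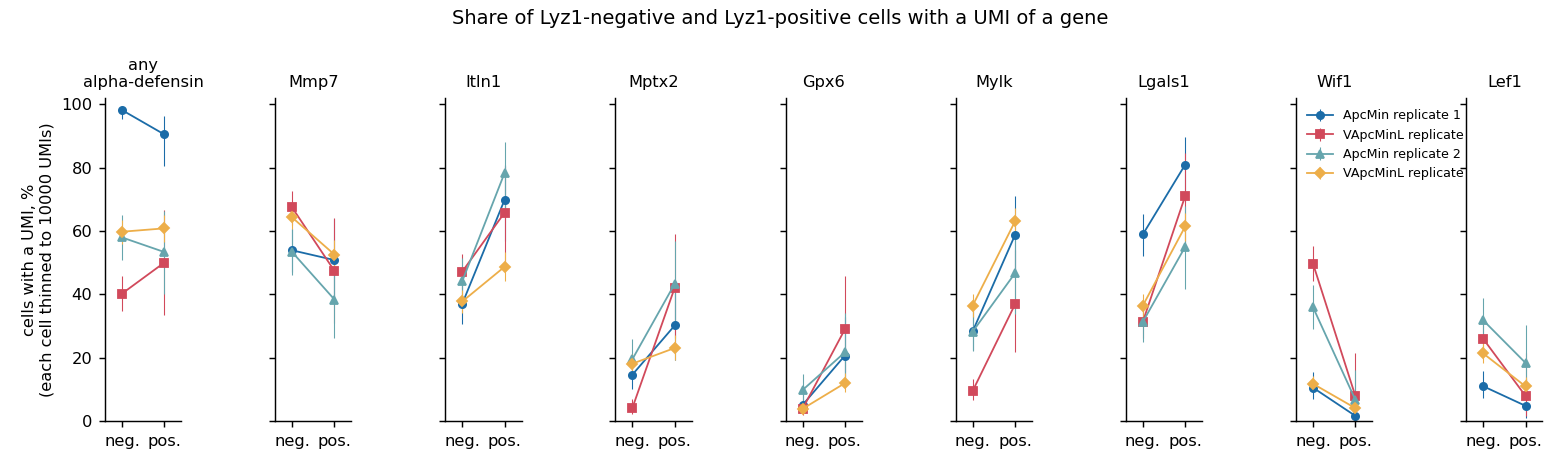
Percent of Lyz1-negative and Lyz1-positive cells with at least 1 UMI of a gene after thinning each cell to 10000 UMIs, 1 line per library. Lines for Itln1 and Mptx2 rise in 4 of 4 libraries, those for Mmp7 and Wif1 fall in 4 of 4, and those for any alpha-defensin go both ways.

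The alpha-defensin promoters shared a sequence that the promoters of Lyz1 and Ang4 lacked. Wnt signaling acts through factors of the TCF/LEF family, which bind a site of the form ATCAAAG. This word was searched on both strands, where its reverse complement is CTTTGAT, in the 250 bases before the start of each gene (RefSeq, GRCm38.p6). Of 28 alpha-defensin genes, 12 were in the promoter table and 12 of 12 held it. It was in 1 of 7 other members of the Paneth list, in 262 of 9147 tested genes (2.86%) and in 3.21% of all promoters. Of the genes called higher and lower, without Lyz1 and the gate genes, 6 of 53 and 5 of 53 matched genes held it. The 6 include the alpha-defensins Defa21, Defa22 and Gm15284, which are also among the 12. The alpha-defensin promoters are near-identical copies and do not count as independent. A match does not show binding. The promoter of Defa22 is shown for its 2 matches in capitals, and those of Lyz1 (chr10:117292869-117293118, minus strand) and Ang4 (chr14:51773591-51773840, minus strand) for comparison. The Defa22 promoter shown lies at chr8:21162027-21162276 on the plus strand.
Defa22: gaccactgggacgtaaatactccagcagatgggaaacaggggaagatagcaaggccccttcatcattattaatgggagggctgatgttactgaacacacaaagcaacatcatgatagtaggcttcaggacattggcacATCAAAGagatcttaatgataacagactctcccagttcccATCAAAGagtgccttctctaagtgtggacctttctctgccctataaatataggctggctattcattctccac
Lyz1: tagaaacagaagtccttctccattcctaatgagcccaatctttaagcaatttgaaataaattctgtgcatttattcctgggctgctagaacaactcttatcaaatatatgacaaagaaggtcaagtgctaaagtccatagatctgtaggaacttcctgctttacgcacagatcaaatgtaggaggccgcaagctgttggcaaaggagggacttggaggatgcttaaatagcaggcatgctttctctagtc
Ang4: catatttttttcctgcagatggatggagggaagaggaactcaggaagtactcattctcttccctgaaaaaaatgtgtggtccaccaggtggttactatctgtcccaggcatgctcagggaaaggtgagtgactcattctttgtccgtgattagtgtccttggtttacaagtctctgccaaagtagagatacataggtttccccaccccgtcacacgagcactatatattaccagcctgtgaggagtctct

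Outside the Paneth list, Gpx6, Slc1a3 and Otof were higher in positive cells. Gpx6, a glutathione peroxidase, measured 108, 350, 116 and 34.0 CPM in positive and 9.35, 11.96, 34.7 and 9.63 CPM in negative cells (log2 difference 2.87 ± 0.45, edgeR adjusted p = 0.0231). Slc1a3, a glutamate transporter, was at 36.8, 31.9, 30.7 and 33.4 CPM against 12.3, 3.46, 13.2 and 9.95 CPM, with no overlap, and differed by 1.79 ± 0.22 (edgeR adjusted p = 0.0087). Otof, which encodes the vesicle fusion protein otoferlin, differed by 1.98 ± 0.34 (edgeR adjusted p = 0.0303). Slc1a3 was called in all 4 fits that left out a library, and Gpx6 and Otof lost the call without ApcMin replicate 1. With negative cells matched on depth, Slc1a3 and Otof were called and Gpx6 was not (2.68 ± 0.49, edgeR adjusted p = 0.060). Without the cells of 50 or more Lyz1 UMIs, Gpx6 differed by 2.56, Slc1a3 by 1.71 and Otof by 1.64, each called. Mylk, the myosin light chain kinase, and Lgals1, galectin 1, were picked after their values had been seen. They differed by 1.16 ± 0.14 and 1.79 ± 0.29, and a thinned UMI of Lgals1 was found in 67.1% of positive and 39.5% of negative cells. Mylk was called in all 4 fits without a library and with negative cells matched on depth. Lgals1 lost the call without ApcMin replicate 1 or ApcMin replicate 2, and with negative cells matched on depth (edgeR adjusted p = 0.096).

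The genes that fell were led by Wif1, a secreted inhibitor of Wnt ligands. Wif1 measured 0.558, 19.9, 8.97 and 7.49 CPM in positive and 18.7, 271, 227 and 38.5 CPM in negative cells, a log2 difference of -3.31 ± 0.31 (edgeR adjusted p = 0.0027). It was lower in each library, and a thinned UMI was found in 5.05% of positive against 27.0% of negative cells on average. Lcn2, the siderophore-binding lipocalin 2, was at 1.12, 6.98, 22.8 and 2.60 CPM in positive and 6.54, 402, 227 and 10.4 CPM in negative cells and differed by -3.28 ± 0.38 (edgeR adjusted p = 0.0067). Pnliprp1, a lipase-related protein, Spock2, a matrix proteoglycan, and Gulo, the last enzyme of vitamin C synthesis, differed by -3.21, -3.20 and -3.04. The other large falls were those of Tlx2, Wfdc15b, Ptn, Lrg1, Trf, Tubb4a and Bex1, from -2.56 to -1.61. Among these 12 genes, Wif1, Lcn2, Pnliprp1, Spock2, Gulo, Wfdc15b, Trf and Tubb4a were called in all 4 fits without a library, and Lrg1 in only 1. In the negative cells, each of the 12 was highest in VApcMinL replicate 1 and ApcMin replicate 2, libraries that differ in both genotype and kit. Spock2, for instance, measured 3.74, 178, 218 and 1.68 CPM there.

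**Figure D5:**
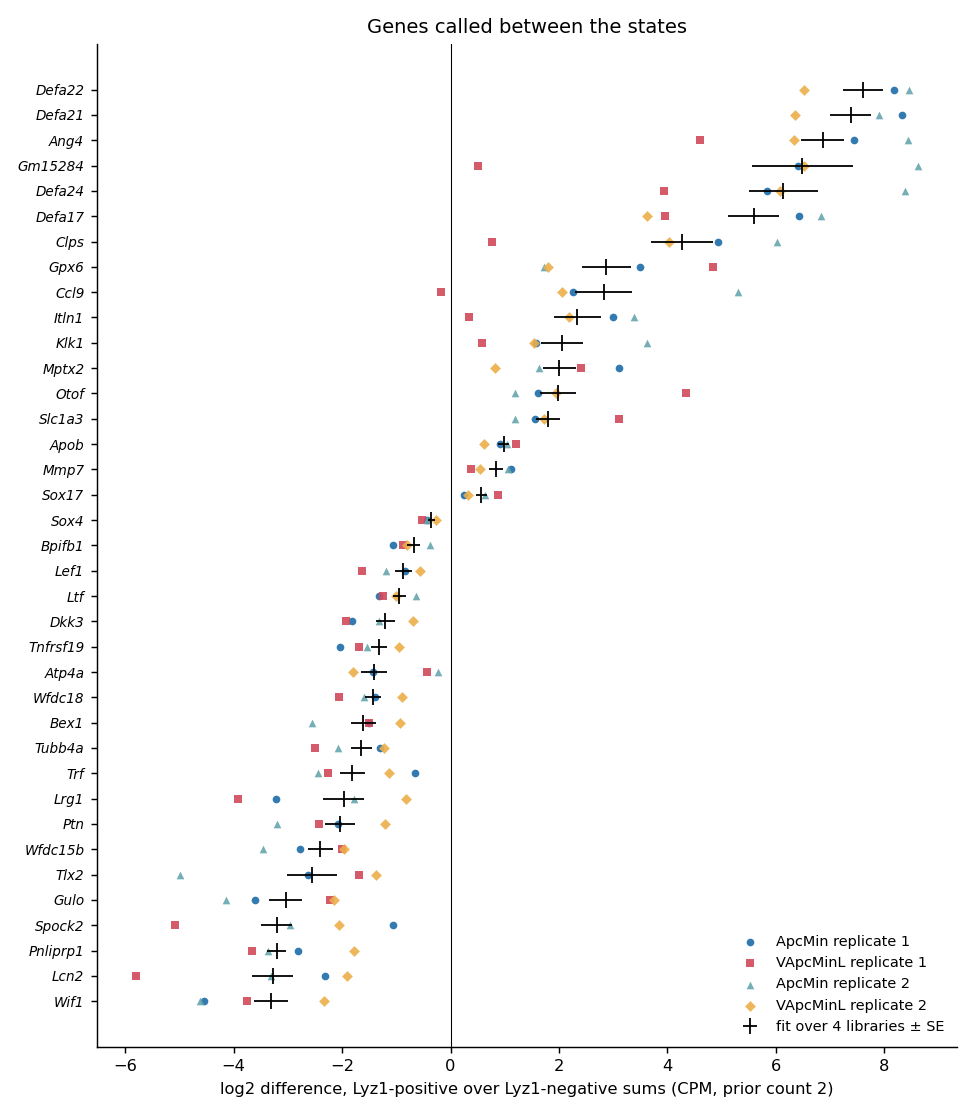
Log2 difference of Lyz1-positive over Lyz1-negative sums (CPM, prior count 2) in each library for the named genes called between the states, 1 symbol per library. Points of VApcMinL replicate 1 lie nearest 0 for Ang4, Gm15284 and Defa24, and a gene with 0 UMIs in both states of a library has no point for it.

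The counts over the whole table depended on the libraries and on the block. Without ApcMin replicate 1 there were 25 higher and 44 lower genes, without VApcMinL replicate 1 64 and 41, without ApcMin replicate 2 31 and 38, and without VApcMinL replicate 2 131 and 161. Without the library as a block, 2 genes were higher, Ang4 and Lyz1, and 0 were lower (edgeR, 599 genes at an unadjusted p under 0.05), and with negative cells matched 1 to 1 on depth 22 were higher and 18 lower.

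In the other lists, members were called in some lists and not in others. Of all genes tested, 0.642% were higher and 0.736% lower. At these shares, 0 calls in a list this short is not a result about its members. None of the 8 tested niche signals of Paneth cells and 9 tested secretory fate factors was called, at median log2 differences of 0.12 and -0.09, and neither were the 23 genes of the secretory load of the endoplasmic reticulum (0.02) or the 28 cell cycle genes (0.08). Of 15 further Wnt feedback and target genes, Wif1, Dkk3 and Lef1 were lower and Sox17, an endodermal transcription factor, was higher. Lef1 differed by -0.87 and Sox17 by 0.57, and Dkk3, a Dickkopf family protein, measured 4.46, 25.9, 35.5 and 10.4 CPM in positive and 16.3, 99.9, 89.4 and 16.9 CPM in negative cells. Of 20 crypt stem cell genes, Tnfrsf19 (-1.32) and Sox4 (-0.35) were lower. The gastric-type list lost Wfdc18 (-1.43), Atp4a (-1.41), the gastric proton pump, and Bpifb1 (-0.68), 3 of 15 tested, and the epithelial defence list Lcn2 and the iron-binding Ltf (-0.95), 2 of 16 tested. Tnfrsf19, Wfdc18 and Ltf were called in all 4 fits without a library, Dkk3 and Atp4a in 2, Lef1, Sox17 and Bpifb1 in 1 and Sox4 in 0. Of 14 enterocyte genes, Apob, an apolipoprotein, rose by 0.98, while 2 of the 14 were above 0 and their median was -0.48. The summed enterocyte list of ApcMin replicate 2 was at 1545 CPM in positive and 3641 CPM in negative cells. None of 8 tuft, 5 enteroendocrine, 12 fetal-type and 80 ribosomal protein genes was called, against 1.38% of all genes tested. The tuft genes had a median log2 difference of -1.55 with 0 of 8 above 0, and the enteroendocrine genes one of -1.56 with 1 of 5 above 0. The summed tuft list was at 104, 152, 193 and 141 CPM in positive and 147, 166, 221 and 216 CPM in negative cells, lower in each library.

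Markers of other cell types moved with the states in some libraries. Of 13 goblet cell genes, Klk1 (2.06) and Ccl9 (2.82) were called higher (15.4%, against 0.642% of all genes tested). Of the 13, 11 were above 0 and the median was 0.55. The summed goblet list was at 1620, 2388, 4872 and 2537 CPM in positive and 997, 2393, 1238 and 1456 CPM in negative cells. In the 27 cells with at least 1% Paneth list UMIs it reached 11164, 4897, 26034 and 25087 CPM, and in the other positive cells 1008, 2244, 1233 and 1628 CPM. Klk1 differed by -0.0043 without the cells of 50 or more Lyz1 UMIs. Both genes lost the call without ApcMin replicate 1 or VApcMinL replicate 1, and with negative cells matched on depth (edgeR adjusted p = 0.123 for Klk1 and 0.068 for Ccl9). Spink4 (3.30, edgeR adjusted p = 0.0548) and the mucin gene Muc2 (2.15, 0.0542), picked after their values had been seen, missed the threshold. The part of goblet-type content in the Paneth result was not tested.

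Macrophages express the related lysozyme Lyz2. Of 10 tested macrophage genes 0 were called, 8 were above 0 and the median was 2.001. Their summed level was 109, 60.8, 384 and 74.1 CPM in positive and 107, 104, 42.5 and 42.1 CPM in negative cells. In ApcMin replicate 2, 3 positive cells held 92.8%, and in VApcMinL replicate 2, 4 positive cells 56.2% of the macrophage UMIs of the positive cells. These cells held 253 of the 272 and 182 of the 223 Lyz2 UMIs, but only 55 and 59 Lyz1 UMIs out of 7359 and 34814. Lyz2, chosen after its values had been seen, measured 12.3, 9.97, 93.8 and 11.8 CPM in positive and 8.23, 5.48, 0.65 and 0.74 CPM in negative cells (log2 difference 3.24 ± 0.78, edgeR adjusted p = 0.0882). Lyz1 and Lyz2 are close paralogs that can share reads. No lymphocyte, fibroblast, endothelial or red cell gene was called among the 2, 3, 3 and 3 tested. Of all genes tested 1.38% were called, so 0 calls in these lists and in the macrophage list is not a result about their members.

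The genotypes did not separate by the share of Lyz1-positive cells. The shares of 14.2% (exact Clopper-Pearson 95% interval 11.1 to 17.8), 7.80% (5.58 to 10.6), 17.5% (13.7 to 22.0) and 25.1% (23.2 to 27.1) differed more between the libraries labelled VApcMinL than between the genotypes. These intervals cover counting error only. VApcMinL exceeded ApcMin by 0.586 percentage points on average (2-sided exact permutation p = 1.0 over 6 arrangements, where the smallest possible p is 0.333). Within kit 2 the difference was -6.39 points and within kit 3 it was 7.56 points, so the direction was opposite in the kits. Without VApcMinL replicate 2 it was -8.06 points, without VApcMinL replicate 1 9.23, without ApcMin replicate 1 -1.09 and without ApcMin replicate 2 2.26. After thinning to 10000 UMIs the shares were 9.20%, 4.65%, 6.95% and 13.7%.

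Within positive cells, 11 genes differed between the genotypes with kit as a block (edgeR adjusted p under 0.05, 0.108% of 10212 tested). Xist and Zg16, a goblet cell lectin, were higher (0.0196%) in the libraries labelled VApcMinL. Ang4 and 8 alpha-defensin genes, among them Defa17 and Defa26, were lower (0.0881%), with Ang4 at a log2 difference of -1.74 ± 0.23 (edgeR adjusted p = 0.0382). Xist without a Y-linked UMI was seen in 0%, 100%, 0% and 16.0% of the positive cells of the libraries. Genotype and sex signal therefore cannot be told apart in these calls. Without the kit block 0 genes were called (with 73 genes at an unadjusted p under 0.05 in edgeR). Fits that left out 1 library kept only 1 library of a genotype and had no kit block. Their counts of calls therefore cannot be set beside the 11 genes and are not given. Most alpha-defensin UMIs of the positive cells lay in the 2, 2, 7 and 16 cells described above, and the part of their number in the 11 calls was not tested. The difference of positive over negative cells itself depended on genotype for 2 genes (0.0171%) in edgeR's test of the interaction, with Bpifb5 higher (0.00856%) and Defa17 lower (0.00856%) in the libraries labelled VApcMinL.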

How the data were processed

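Single-cell 3′ RNA-seq counts of 4 adenoma libraries were analysed. The authors deposited raw UMI counts per gene and barcode for all barcodes. The submitters' processing notes name Cell Ranger 2.1.1 and Seurat 3.1.1 with the mm10 reference, while the kit 3 files carry the name of a later Cell Ranger release in their headers. The gene tables list 27998 genes for kit 2 and 31053 for kit 3, and the 27514 shared by identifier were used, so changed gene models can add to differences between kits.

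The members and the gene lists were chosen with earlier results of these data known. Cells were selected by the limits given in the report and UMIs were summed per library and state, since cells are not replicates. The 8 sums were tested with edgeR 4.0.16 in R 4.3.3 (quasi-likelihood test, TMM scaling, expression filter at a minimum count of 10, library as a block, Benjamini-Hochberg threshold of 0.05). Positive and negative cells of a library come from the same pool of tumors, which is what pairs them. Cells were not assigned to tumors or animals, so the 2 states can hold these in different proportions. In VApcMinL replicate 2, Xist without a Y-linked UMI was seen in 16.0% of positive and 29.1% of negative cells. The part of such differences in the calls between the states was not tested. Genotypes within positive cells were compared with kit as a block, and the interaction of state and genotype within libraries. For shares, each cell was thinned to 10000 UMIs, and exact permutation tests over libraries were used. Log2 differences per library used a prior count of 2. Depth per sum ranged from 1003427 to 19001129 UMIs.

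Genes named are the tested Paneth members, the called members of the other lists, and the 12 largest rises and 12 largest falls among called genes with 1 direction in 4 of 4 libraries and a mean of at least 20 CPM in the higher state. Others were chosen after their values were seen. 1 called member is counted but not reported here. Scrublet (scanpy 1.11.5) scored doublets, which stayed in the main comparison. On simulated counts, the test between the states recovered 186 of 193 genes changed by 1.5 on the log2 scale with 21 false calls (11544 genes run), and made 6 calls with no gene changed (11550 genes run). Alternatives were DESeq2 1.42.0, scaling, the filter, the block, the depth, the limits on cells and Lyz1, doublet removal, a split by sex signal and leaving out each library.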

Additional observations from a re-analysis of the deposited data

Results flagged for a closer look

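Among 73 groups of 4 libraries examined for a value far from the other 3, 2 were found, and chance alone gives about 1 in 20 such groups. Nupr1 was lower in the positive cells of VApcMinL replicate 1 by a log2 difference of -1.57, while it was higher in the positive cells of the other 3 libraries. Spink4, a goblet cell gene, was higher by 6.75 in ApcMin replicate 2, further from 0 than in the other libraries. The positive cells of that library also held the highest share of cells with at least 1% Paneth list UMIs (11.7%).

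The difference between the states itself differed between the genotypes for 2 genes in edgeR's test of the interaction. Bpifb5, a secreted protein of the BPI family, had a state difference that was higher by 6.14 ± 0.36 on the log2 scale in the libraries labelled VApcMinL (edgeR adjusted p = 0.00098). It measured 0, 150, 2.07 and 5.26 CPM in positive and 29.0, 550, 633 and 26.6 CPM in negative cells, so it was lower in positive cells in 4 of 4 libraries, by more in those labelled ApcMin. The state difference of Defa17 was lower by -2.88 ± 0.26 in the libraries labelled VApcMinL (edgeR adjusted p = 0.016). On simulated counts with no changed gene, this test made 32 calls of 11560 genes run, more than the 2 found here, while DESeq2 made 0. The comparison of genotypes within positive cells recovered 0 of 182 genes changed by 1.5 on the log2 scale (10282 genes run), and DESeq2 recovered 34.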

How the results depend on the processing

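The higher and lower counts of 75 and 86 genes moved by over 1.5 times under several alternatives, and the cause was not tested unless fewer cells or genes entered. They were 22 and 18 with depth-matched negatives (fewer negative cells), 132 and 157 split by sex signal, 133 and 152 with DESeq2 and 444 and 575 without the filter on low counts. Removing Scrublet doublets gave 117 higher genes. Removing cells above 2 times the median UMIs gave 147 lower genes, and library totals without TMM gave 130. Leaving out a library gave 25 to 131 higher and 38 to 161 lower genes.

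The library as a block decided the number of calls. With no replicate block, 2 genes were higher and 0 lower, 1 Paneth member (Ang4) and 0 members of other lists were called, and 0 genes differed by genotype.

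The 11 of 15 tested Paneth members called higher became 0 of 15 without cells of 50 or more Lyz1 UMIs, where 1 was lower. They became 0 of 15 without cells of at least 1% Paneth UMIs. Without cells above 2 times the median UMIs 4 of 15 were called higher, and under the stricter gate 7 of 15. In other settings the number tested changed too. After thinning to 10000 UMIs it was 7 of 12, with gate and states set anew on the thinned counts (23, 19, 18 and 164 positive cells). Without the filter it was 30 of 33, where 444 of 19024 genes in all were higher. Without 1 library, 8 to 21 were called higher with 15 to 26 tested. The median of 5.59 became 0.229 without cells of 50 or more Lyz1 UMIs and 0.226 without cells of at least 1% Paneth UMIs. It was 2.75 after thinning, 2.57 without cells above 2 times the median UMIs and 3.46 under the stricter gate. The 14 calls in other lists became 24 after thinning, Scrublet removal or removal of cells above 2 times the median UMIs, 5 with depth-matched negatives, 27 split by sex signal, 22 with DESeq2, 88 without the filter and 9 to 19 without 1 library.

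The 2 interaction calls became 11 after thinning, 1 and 5 at Lyz1 limits of 3 and 10 UMIs, 94 without the filter, 4 with DESeq2 and 2 to 8 without 1 library. The 11 calls between genotypes became 0 after thinning, 20 at either Lyz1 limit and 83 without the filter. The difference in the share of Lyz1-positive cells ranged from -8.06 to 9.23 points without 1 library. That of any alpha-defensin per cell, -0.36 points, was 6.52 unthinned, 2.11 without cells of 50 or more Lyz1 UMIs and -3.75 to 2.09 without 1 library.

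Direction turned for single genes, mostly without cells of 50 or more Lyz1 UMIs or of at least 1% Paneth UMIs. In this order, Gm14851 was at -0.12 and -0.18, Defa17 at -0.070 and -0.0085, Mmp7 at -0.53 and -0.41 and Nupr1 at -0.70 and -0.67, while Klk1 was at -0.0043 in the former setting only. The Nupr1 log2 difference was also -0.067 at a Lyz1 limit of 3, -0.14 after thinning, -0.072 without cells above 2 times the median UMIs and -0.20 with no replicate block. The Habp2 log2 difference was 0.12 at a limit of 10, 0.0081 at a floor of 5000 UMIs and -0.30 to 0.22 without 1 library. The share of cells with Clps differed by -0.736 points without cells of 50 or more Lyz1 UMIs, and that of Defa24 by 5.44 unthinned and 3.24 without those cells. Of the values for single genes, 843 counted as unchanged, 155 lost the call, 42 gained it, 20 turned direction and 9 moved. For tested differences, unchanged means the same direction and side of the threshold. For shares of cells it means the same direction only. For Lyz1 and the gate genes it means a change smaller than the SD over libraries.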
